A study of Mus musculus with 60 samples.

Results

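The genes described here are 7 chaperones and folding factors of the endoplasmic reticulum (ER) lumen (Hspa5, Hsp90b1, Calr, Pdia3, Pdia4, Pdia6 and Creld2) and 3 transcription factors of the ER stress response (Xbp1, Ddit3 and Atf4). They were chosen by symbol and stand on 11 of the 21997 probes of the arrays, with 2 probes for Hspa5, here probes 1 and 2, and 1 for each other gene. KO hepatocytes came from mice labelled Alb-Cre +/-; Met Fl/Fl on strain 129SV/C57BL6. The floxed gene, Met, encodes the receptor for HGF (hepatocyte growth factor), and the albumin promoter directs Cre to hepatocytes. Which other liver cells kept the gene is not shown here. WT hepatocytes have "WT - Cre" in every title, with a Cre genotype given for only some arrays, and strain C57BL, so genotype and strain differed together. Both were primary cultures from male mice of 9 to 10 weeks, set up per the labels from 3 individual animals, plated in serum and then kept serum-free. For each genotype RNA was taken untreated and after 0.5, 2, 12 and 24 h with 50 ng/ml HGF, which gave 10 groups of 3 replicates. The reference on every array was RNA pooled from WT hepatocytes, and each replicate has 2 arrays that differ in which dye it carries, which makes 60. Cultures of different times may share a mouse. Untreated cultures are those of time 0, so the effect of HGF and that of longer culture cannot be told apart. The labels also give the HGF dose as 50 nM in another field, and the times used are those of the sample titles.

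Secretory and membrane proteins fold in the ER lumen, and the liver, which makes most plasma proteins, depends on this step. When unfolded proteins accumulate, the sensors IRE1, ATF6 and PERK start the unfolded protein response. IRE1 splices the Xbp1 transcript into the form that encodes an active factor, cleaved ATF6 and XBP1 raise transcription of chaperone genes, and PERK slows translation and favours that of Atf4, whose product induces Ddit3 (CHOP). Much of the control of Xbp1 and Atf4 is thus on splicing and translation. A probe ratio as used here reports transcript abundance and was not resolved into the spliced and unspliced forms of Xbp1.

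Values are log2 ratios of a culture to the pooled WT RNA, averaged over both dye orientations after each array was set to a median of 0. A ratio of 0 means equality with the pool and not absence, so levels cannot be compared between genes. Differences are given with the standard error (SE) of a limma fit over all 30 replicates, and calls are those with p under 0.05 after Benjamini-Hochberg adjustment over the 14580 probes that passed the filter on missing values. The probes of Ddit3 and Atf4 failed that filter, since Ddit3 had both dyes in 1 of 3 KO replicates at 12 h and Atf4 in no WT replicate at 0.5 h. The other 9 member probes passed. Arrays fall into 4 sets (A to D) by runs of the numbers in their labels, and 23 of 30 dye pairs correlated negatively over probes as deposited (r between -0.677 and 0.186). Each replicate was given the set of its Cy5 array. WT 24 h replicate 2 has its Cy5 array in set C and its Cy3 array in set B. Fits without sets A and B therefore keep that Cy3 array. The Cy5 array of WT untreated replicate 3 took part in all 19 pairs of same-dye arrays that correlated under -0.3, so its direction was unsettled. Results that rest on this replicate are given with and without it. Shares over all probes are those of the limma fit of all 30 replicates, and most counts from other fits stand without such a share. The Met probe did not separate the genotypes (KO minus WT -0.03 ± 0.21 untreated and 0.08 ± 0.08 averaged over the 5 times, the average with adjusted p = 0.645). Its position relative to the floxed part is unknown here, so it does not check the labels. Egr1, an immediate early gene of growth factor signalling, was lower in KO at 2 h (log2 difference -1.08 ± 0.19, adjusted p = 0.00140).

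By their median, the chaperone probes were high in some WT cultures and near the pool in KO. The median over the chaperone probes lay between -0.39 and 0.37 in all 15 KO replicates. In WT it was 1.32, 1.22 and -0.21 in untreated replicates 1, 2 and 3, then 1.15, 1.23 and 1.24 at 0.5 h, -0.17, -0.02 and 0.04 at 2 h, 1.16, 1.11 and 1.36 at 12 h, and 0.87, 0.49 and -0.56 at 24 h. The WT median was thus above every KO replicate at 0.5 h and at 12 h, close to the pool at 2 h, and split between replicates in untreated cultures and at 24 h. In both split groups the low replicate is replicate 3, which lies in array set B, while the high ones lie in set C. KO replicates of sets A and B were also the lowest of their groups when untreated (-0.36, against 0.14 and 0.17 in set C) and at 24 h (-0.38, against 0.37 and 0.29 in set C). At 2 h the KO replicate of set A was the highest of its group (-0.28, against -0.35 and -0.39 in set D).

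**Figure D1:**
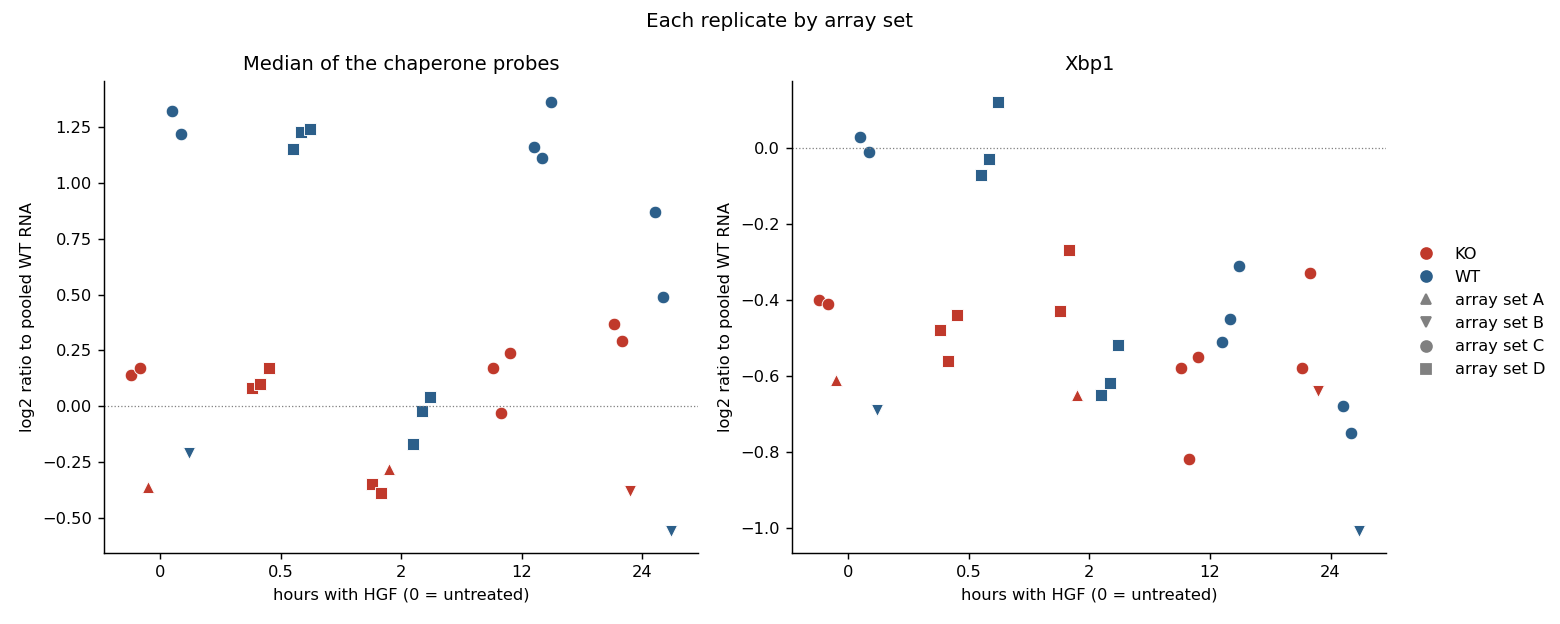
Median log2 ratio of the chaperone probes (left) and log2 ratio of Xbp1 (right) in each replicate, by hours with HGF, with KO in red left of WT in blue and the marker shape giving the set of the Cy5 array. All KO medians lie between -0.39 and 0.37, while WT medians reach 1.11 to 1.36 at 0.5 and 12 h and in untreated replicates 1 and 2.

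At 0.5 h of HGF, 8 of the 9 member probes tested were lower in KO than in WT, 7 of the 8 chaperone probes and Xbp1, and none was higher. Over all probes 11.1% were lower in this comparison and 19.8% called in either direction. The median difference of the 8 chaperone probes was -1.08 on the log2 scale, against -0.04 over all probes tested. All 6 replicates of this time lie in array set D. With all replicates weighted equally, 3 of the 8 stayed under the threshold, Pdia4, Pdia6 and Creld2.

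Pdia4, a protein disulfide isomerase that forms and rearranges disulfide bonds, had the largest difference. Its log2 ratio was -0.22, 0.14 and 0.15 in KO and 1.63, 1.72 and 2.17 in WT at 0.5 h, with no overlap. It was 3.52-fold lower in KO (log2 difference -1.82 ± 0.28, adjusted p = 0.000107). Pdia6, another isomerase of this family, had -0.02, -0.23 and -0.12 in KO and 1.29, 1.26 and 1.39 in WT. The KO values are near the pool and the WT values well above it, a 2.70-fold difference (log2 -1.44 ± 0.16, adjusted p = 3.12e-06). Pdia3, the isomerase that works with calreticulin on glycoproteins, had -0.35, -0.03 and -0.40 in KO and 0.82, 0.81 and 0.87 in WT. Its difference was -1.09 ± 0.31 (adjusted p = 0.0156), and the call was lost without KO replicate 3, without WT replicate 2 or without WT replicate 3, with differences between -1.21 and -1.02 over all single omissions. Creld2, a small lumenal protein known as an ER stress-inducible folding factor, had 0.01, -0.20 and -0.07 in KO and 1.14, 1.24 and 1.22 in WT. The groups are far apart relative to their spread, with a 2.44-fold lower ratio in KO (log2 -1.29 ± 0.15, adjusted p = 7.62e-06).

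Hspa5 encodes BiP, the lumenal Hsp70 that binds unfolded chains and holds the stress sensors inactive. Its probe 1 gave 0.30, 0.37 and 0.32 in KO and 1.21, 1.32 and 1.69 in WT at 0.5 h, a 2.11-fold lower ratio in KO (log2 -1.07 ± 0.21, adjusted p = 0.000800). Its probe 2 gave 0.16, 0.06 and 0.19 in KO and 0.11, 0.28 and 0.20 in WT, with overlapping groups and a difference of -0.06 ± 0.12 (adjusted p = 0.768). The 2 probes are annotated to different transcript records of the same gene and disagree at 0.5 h and at 12 h. Over the 10 group means, probe 2 stayed between -0.14 and 0.19, whereas probe 1 ran between -0.20 and 1.56. Hsp90b1 encodes GRP94, the lumenal Hsp90. It had 0.17, 0.20 and 0.34 in KO and 1.07, 1.20 and 1.25 in WT, a 1.92-fold lower ratio in KO (log2 -0.94 ± 0.23, adjusted p = 0.00585). Calr encodes calreticulin, the calcium-binding lectin chaperone. It had 0.31, 0.43 and 0.40 in KO and 1.15, 1.22 and 1.09 in WT, a 1.71-fold lower ratio in KO (log2 -0.78 ± 0.19, adjusted p = 0.00518).

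At 12 h, 5 of the 9 member probes were lower in KO, all 5 of them chaperones, and none was higher. Over all probes 2.50% were lower in this comparison and 4.49% called in either direction. All 6 replicates lie in array set C. Creld2 had -0.23, -0.69 and -0.28 in KO and 1.26, 1.11 and 1.43 in WT, a 3.18-fold lower ratio in KO (log2 -1.67 ± 0.18, adjusted p = 7.56e-06). Hspa5 probe 1 had 0.20, -0.00 and 0.47 in KO and 1.49, 1.56 and 1.62 in WT (difference -1.33 ± 0.25, adjusted p = 0.00164). Hsp90b1 had 0.32, 0.05 and 0.55 in KO and 1.60, 1.57 and 1.61 in WT (difference -1.28 ± 0.28, adjusted p = 0.00618). None of these groups overlap. Pdia6 was 2.41-fold lower in KO (-1.27 ± 0.19, adjusted p = 0.000201), with -0.20, -0.36 and -0.06 in KO and 1.06, 1.03 and 1.11 in WT. Pdia4 was 2.47-fold lower in KO (-1.30 ± 0.34, adjusted p = 0.0253), a call that 4 of the 6 single omissions removed at differences of -1.36 to -1.22. Without KO replicate 1 the call of Hsp90b1 was also lost, and 3 probes were called. With equal weights 3 were called, Creld2, Pdia6 and Hspa5 probe 1. Pdia3 (-0.75 ± 0.38) and Calr (-0.62 ± 0.23) did not pass, although the replicates of their groups did not overlap.

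In untreated cultures limma called no member probe, among 0.0137% of all probes, and 5 had an unadjusted p under 0.05. The median difference of the 8 chaperone probes was -1.03, against 0.01 over all probes, with wider errors than at 0.5 h. Pdia4 had -1.36 ± 0.41 (adjusted p = 0.739), Hsp90b1 -1.15 ± 0.34 (adjusted p = 0.609), Pdia6 -1.08 ± 0.23 (adjusted p = 0.139) and Hspa5 probe 1 -1.05 ± 0.30 (adjusted p = 0.585). Calr differed less, by -0.30 ± 0.27. Creld2 had -0.15, -0.03 and -0.31 in KO and 1.39, 1.17 and -0.06 in WT (adjusted p = 0.171). WT replicate 3 lay far below the other WT replicates. Pdia4, for example, had 0.30, 0.08 and -0.47 in KO and 1.88, 2.52 and -0.40 in WT replicates 1, 2 and 3. Without that replicate 5 member probes were called, all lower in KO, and without it and KO 24 h replicate 2 there were 6, all chaperones, with Pdia4 at -2.23 ± 0.29 and Creld2 at -1.44 ± 0.15. In that fit 56 of 14580 probes were called, and 55 in the fit without WT untreated replicate 3 alone. With array set as a term and all replicates kept, 5 member probes were called, with no share over all probes given for that fit.

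At 2 h limma called no member probe between genotypes, among 4.52% of all probes, and 3 had an unadjusted p under 0.05. With array set as a term 3 were called, again without a share over all probes. The WT ratios were close to the pool there. Pdia4 had -0.92, -0.71 and -0.64 in KO and -0.27, -0.11 and 0.04 in WT (difference -0.65 ± 0.27, adjusted p = 0.182), and Pdia6 had -0.72, -0.60 and -0.43 in KO and -0.16, -0.17 and 0.11 in WT (difference -0.51 ± 0.15, adjusted p = 0.0562). For both the KO replicates were all below the WT replicates. At 24 h limma called no member probe either, among 1.11% of all probes, and 1 had an unadjusted p under 0.05. The most negative difference, -1.57 ± 0.58 for Pdia3 (adjusted p = 0.294), rests on KO replicate 2, with 0.50, -2.87 and -0.43 in KO and 1.17, 1.15 and -0.41 in WT. Without KO replicate 2 and WT untreated replicate 3 it was -0.60 ± 0.37, and without array sets A and B it was -2.34 ± 0.58 and was called (adjusted p = 0.0376).

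Averaged over the 5 times, 7 of the 9 member probes were lower in KO, all chaperones, and none was higher, against 5.05% of all probes lower and 9.64% called in either direction. Creld2 (-1.01 ± 0.10, adjusted p = 1.81e-07), Pdia4 (-1.09 ± 0.17, adjusted p = 7.58e-05) and Pdia6 (-0.90 ± 0.10, adjusted p = 4.39e-07) had the largest differences. Pdia3 (-0.79 ± 0.19), Hspa5 probe 1 (-0.75 ± 0.12) and Hsp90b1 (-0.73 ± 0.14) followed. Calr, at -0.35 ± 0.11 (adjusted p = 0.0453), was called in only 8 of 30 fits that left out 1 replicate. These averages share the values of the single times and are not separate evidence.

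**Figure D2:**
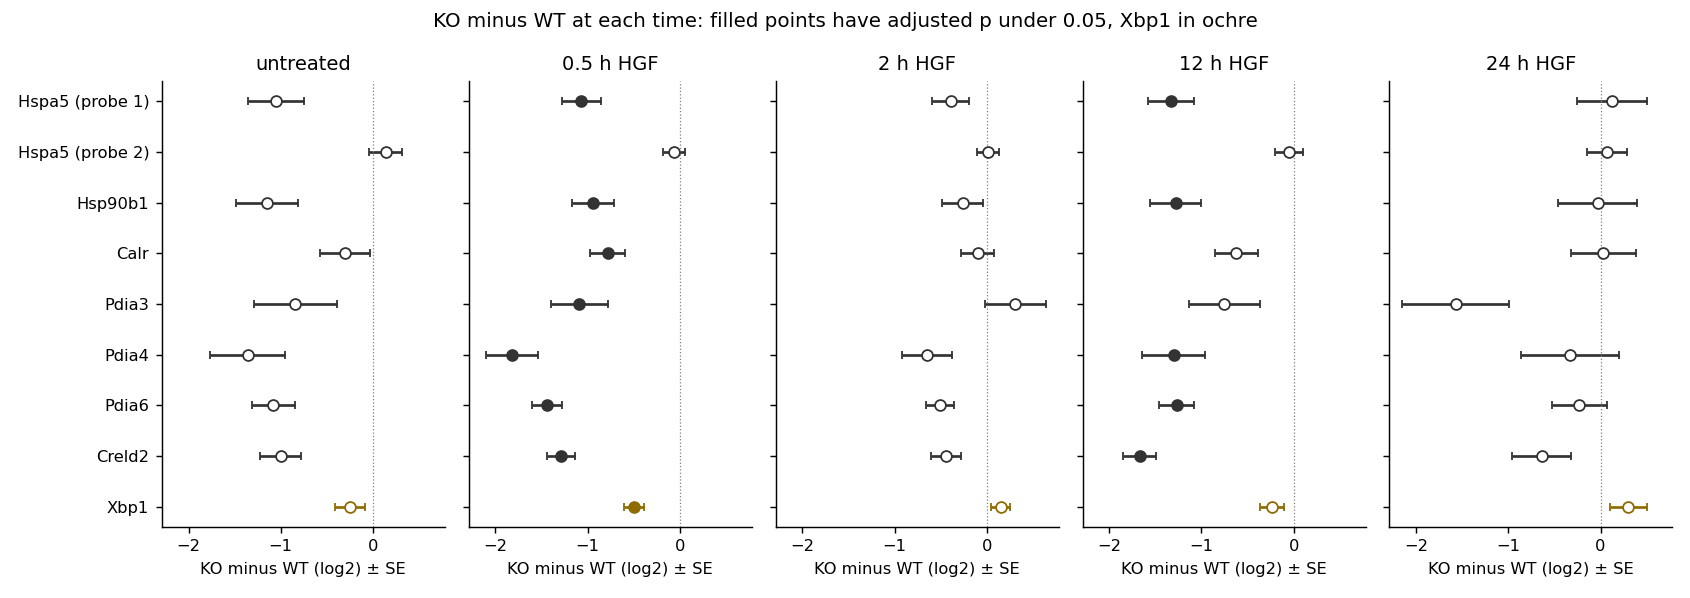
Log2 difference KO minus WT with its SE (bars) for the 9 tested member probes at each time, with 2 or 3 replicates per genotype. Filled points have an adjusted p under 0.05 and Xbp1 is in ochre. Of these probes 8 are called at 0.5 h and 5 at 12 h, all below 0, and none untreated, at 2 h or at 24 h.

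The transcription factors were set against the chaperones. Xbp1 followed the direction of the chaperones at 0.5 h with a smaller difference. It had -0.48, -0.56 and -0.44 in KO and -0.07, -0.03 and 0.12 in WT, and the groups did not overlap (difference -0.50 ± 0.11, 1.42-fold lower in KO, adjusted p = 0.00239). At 12 h it had -0.58, -0.82 and -0.55 in KO and -0.51, -0.45 and -0.31 in WT, a difference of -0.23 ± 0.13 that was not called (adjusted p = 0.402), while 5 chaperone probes were. At 2 h it had -0.43, -0.27 and -0.65 in KO and -0.65, -0.62 and -0.52 in WT, with overlap (difference 0.15 ± 0.10, adjusted p = 0.500). At 24 h it had -0.58, -0.33 and -0.64 in KO and -0.68, -0.75 and -1.01 in WT (difference 0.30 ± 0.20, adjusted p = 0.782), which was not called. The replicates did not overlap at 24 h, with KO above WT, nor at 12 h, with KO below WT. Averaged over time the Xbp1 difference was -0.11 ± 0.07 (adjusted p = 0.349). The difference between Xbp1 and the chaperones was not tested.

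Ddit3 encodes CHOP, a factor linked to cell death under prolonged stress, and the KO and WT replicates of its probe stood apart early. Untreated it had -0.83, -0.78 and -0.64 in KO and 1.11, 1.14 and -0.42 in WT, again with WT replicate 3 low. At 0.5 h it had -0.79, -0.75 and -0.72 in KO and 0.89, 0.58 and 1.06 in WT. At 2 h it had -0.46, -0.41 and -0.43 in KO and -0.13, -0.12 and -0.24 in WT, and at 12 h -0.32 in the 1 KO replicate with both dyes and 0.21, 0.30 and 0.30 in WT. KO replicates were below all WT replicates at each of these 4 times. At 24 h the groups overlapped, with -0.32, -0.28 and -1.18 in KO and -0.59, 0.28 and 0.30 in WT. Accepting 1 orientation per replicate makes the probe testable. The difference was then -1.60 ± 0.19 at 0.5 h (adjusted p = 9.17e-06), -0.53 ± 0.23 at 12 h (adjusted p = 0.263), where 2 KO replicates were read on Cy5 alone. On Cy5 arrays alone the 12 h difference was -0.90 ± 0.26 and was called (adjusted p = 0.0350). With 1 orientation accepted it was -0.87 ± 0.11 averaged over time (adjusted p = 1.13e-05).

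Atf4, the factor at the centre of the integrated stress response, had smaller differences. Untreated it had 0.24, 0.15 and -0.26 in KO and 0.22 and -0.50 in the WT replicates 1 and 3 that had both dyes, with overlap. At 12 h it had -0.06, -0.25 and 0.05 in KO and 0.04, 0.08 and 0.28 in WT, also with overlap. At 0.5 h KO had -0.06, -0.69 and -0.14, and WT had values on Cy5 arrays only, so a test with 1 orientation sets averages over both dyes against Cy5 alone (difference -0.74 ± 0.19, adjusted p = 0.00920). On Cy5 arrays alone it was -0.59 ± 0.23 (adjusted p = 0.227).

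**Figure D3:**
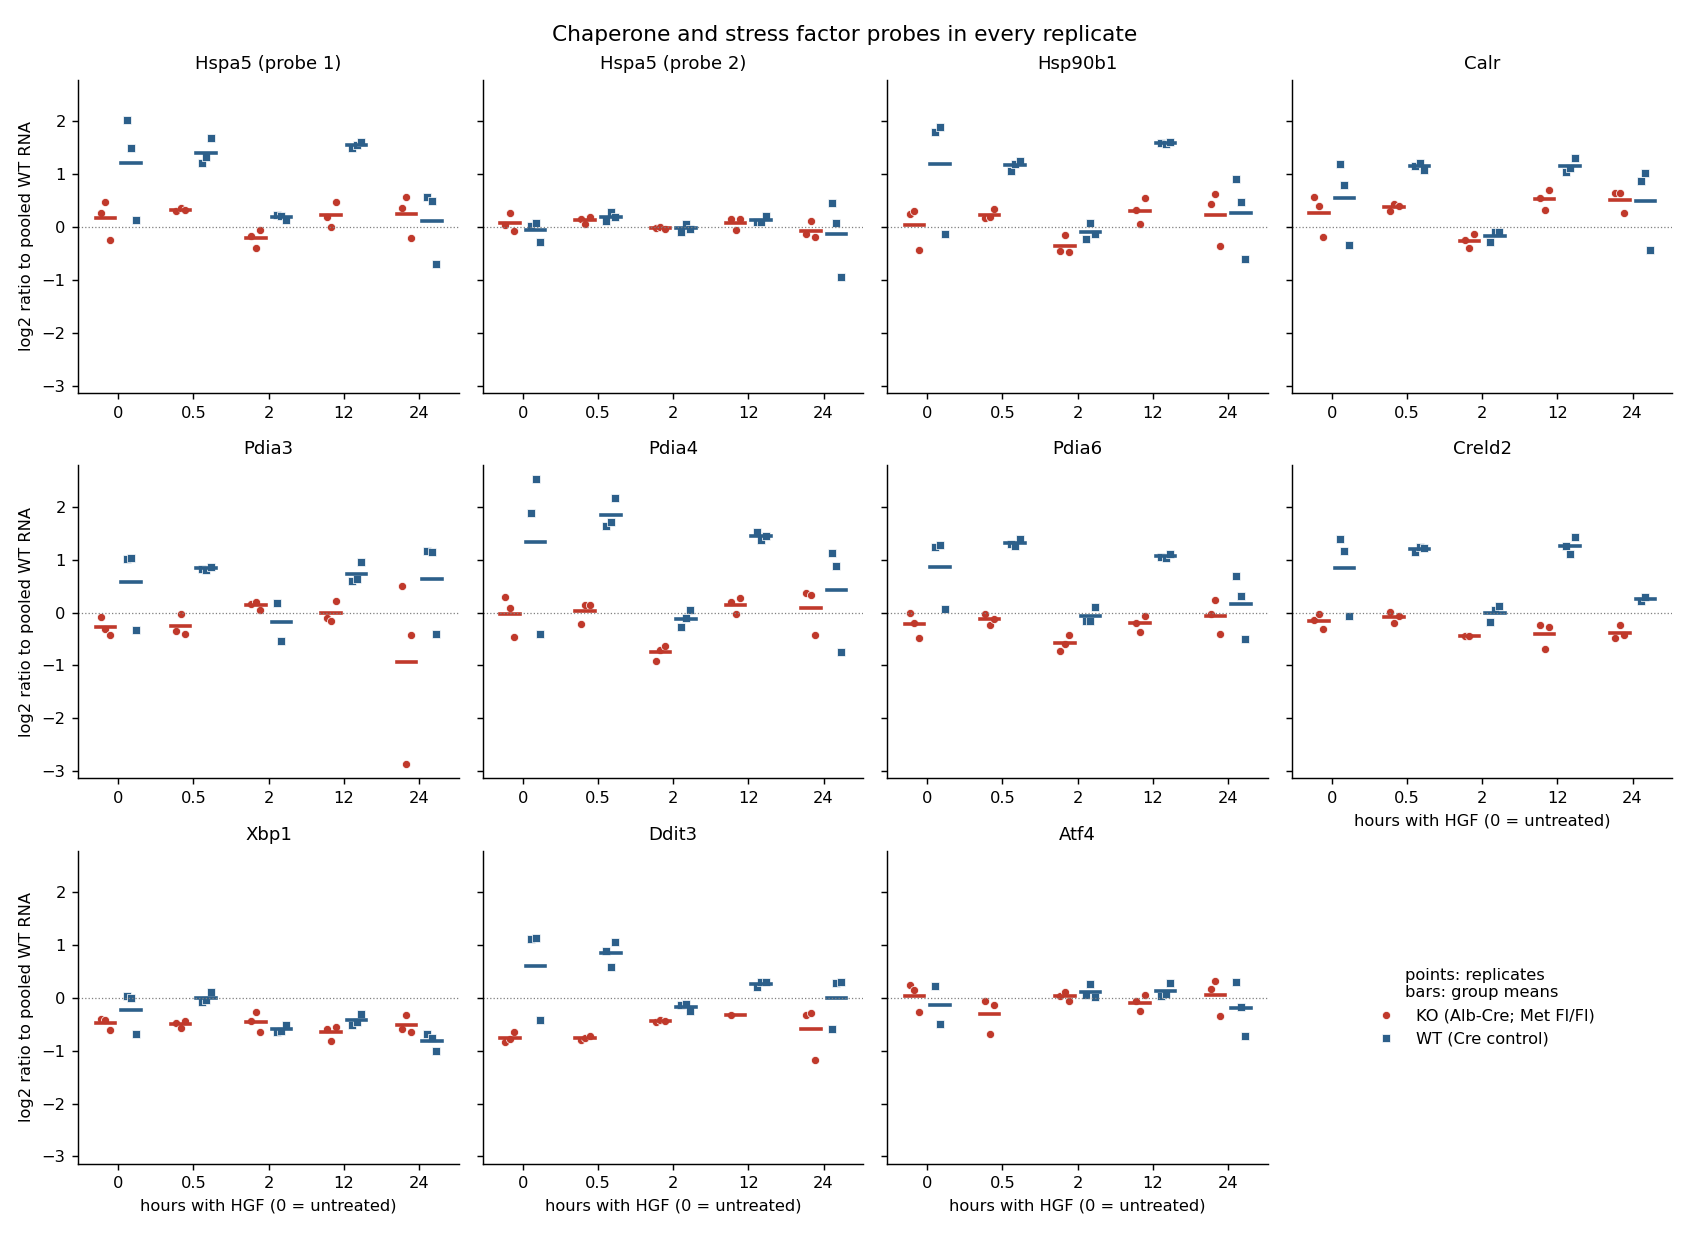
Log2 ratio to pooled WT RNA of each member probe in every replicate (points) with the group mean (bars), by hours with HGF, with KO in red left of WT in blue. The chaperones, except Hspa5 probe 2, and Ddit3 are high in WT untreated replicates 1 and 2 and at 0.5 h, and the chaperones again at 12 h, while Atf4 varies around 0 and Xbp1 stays at or below about 0.

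The order of the 10 groups was much the same for the chaperones. For 6 of the 7 chaperone probes other than Hspa5 probe 2, the 3 highest means were WT at 0.5 h, WT at 12 h and WT untreated, and for 6 of the 7 the lowest was KO at 2 h. Both exceptions are Pdia3, for which WT at 24 h ranked above untreated WT and whose lowest mean, -0.93 at 24 h in KO, holds the single value of -2.87. Neighbours in the order mostly could not be separated: for Hspa5 probe 1, Calr and Pdia3, the replicates overlapped in all 9 pairs of neighbouring groups. For Hsp90b1 they were apart in 1 of 9, where WT at 0.5 h stood above KO at 12 h. For Xbp1 the highest mean was 0.01 in WT at 0.5 h and the lowest -0.82 in WT at 24 h, with overlap in all 9 pairs. Over the 30 replicates, which share the group structure and the reference pool, the 21 pairs among these 7 chaperone probes correlated with r between 0.48 and 0.96 (median 0.87, n = 27 to 30). With the same probes, Ddit3 had a median r of 0.73, Xbp1 of 0.69 and Atf4 of 0.43 (n = 24 to 30).

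HGF against untreated was compared within each genotype. In limma no member probe was called in any of the 8 comparisons, among 0.0274, 0.199, 0.796 and 2.68% of all probes called in KO at 0.5, 2, 12 and 24 h, and 0.0480, 0.233, 4.13 and 2.15% in WT. At an unadjusted p under 0.05 there were 0, 3, 0 and 0 member probes in KO and 1, 7, 1 and 4 in WT. These 4 comparisons of a genotype share their untreated cultures. In WT at 2 h the chaperone differences had a median of -0.88, against -0.02 over all probes. Pdia4, for example, had -0.27, -0.11 and 0.04 at 2 h and 1.88, 2.52 and -0.40 untreated in WT (difference -1.45 ± 0.39, adjusted p = 0.119). Without WT untreated replicate 3, 7 member probes were lower at 2 h and 6 at 24 h in WT. In that fit 1007 of 14580 probes were called at 2 h and 363 at 24 h. With all replicates and array set as a term, 0 member probes were called at 2 h and 5 at 24 h. No share over all probes is given for that fit. The WT untreated and 2 h replicates share no array set, and neither do the untreated and 0.5 h replicates of either genotype.

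A comparison of 2 h against 0.5 h was added after the values were seen. In WT it lies within array set D, and 8 of 9 member probes were lower at 2 h, 7 chaperone probes and Xbp1, against 22.6% of all probes lower and 36.5% called in either direction. Pdia4 was 3.87-fold lower at 2 h than at 0.5 h in WT (-1.95 ± 0.27, adjusted p = 1.16e-05), with -0.27, -0.11 and 0.04 at 2 h and 1.63, 1.72 and 2.17 at 0.5 h. Calr was 2.48-fold lower (-1.31 ± 0.18, adjusted p = 9.53e-06), with -0.29, -0.09 and -0.10 at 2 h and 1.15, 1.22 and 1.09 at 0.5 h. Xbp1 was 1.52-fold lower (-0.61 ± 0.11, adjusted p = 0.000107), with -0.65, -0.62 and -0.52 at 2 h and -0.07, -0.03 and 0.12 at 0.5 h. In none of these did the groups overlap. In KO the same comparison called 1 of 9, Calr (-0.63 ± 0.19, adjusted p = 0.0291), against 5.82% of all probes lower and 10.6% called in either direction. It is not within set D, since KO replicate 3 at 2 h lies in set A. With array set as a term, or without sets A and B, 5 were called and lower at 2 h in KO, Hspa5 probe 1, Hsp90b1, Calr, Pdia4 and Pdia6. Whether KO and WT differ in this change was not tested.

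Whether the HGF response differed between genotypes was tested over the 4 times together with a moderated F-test. limma called no member probe, among 1.21% of all probes, and 5 had an unadjusted p under 0.05, with the lowest adjusted p for Creld2 (0.0891) and Pdia6 (0.129). Without WT untreated replicate 3, 6 member probes were called, among 414 of 14580 probes. With array set as a term 6 member probes were called as well, with no share over all probes given.

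The KO minus WT differences were read on each dye orientation by itself. At 12 h all 11 member probes had a lower difference on Cy5 than on Cy3 arrays, and 10 were below 0 on both. At 0.5 h, 9 of the 10 probes with both orientations were below 0 on both, and untreated 9 of 11. At 2 h 6 of 11 and at 24 h 3 of 11 were below 0 on both, and at 24 h the orientations gave opposite signs for 6 of the 8 chaperone probes, such as Pdia4 (-0.83 on Cy5 and 0.17 on Cy3 arrays) and Hsp90b1 (-0.45 and 0.39). At 0.5 h Hspa5 probe 1 differed by -1.93 on Cy5 and -0.22 on Cy3 arrays. Pdia6 differed by -1.39 on Cy5 and -1.48 on Cy3 arrays, and Pdia4 by -2.12 and -1.51. Over all probes the KO minus WT differences of the 2 orientations correlated with r = 0.015 at 0.5 h and 0.201 at 12 h. The share of all probes below 0 on both orientations, or lower on Cy5 than on Cy3 arrays, was not counted.

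**Figure D4:**
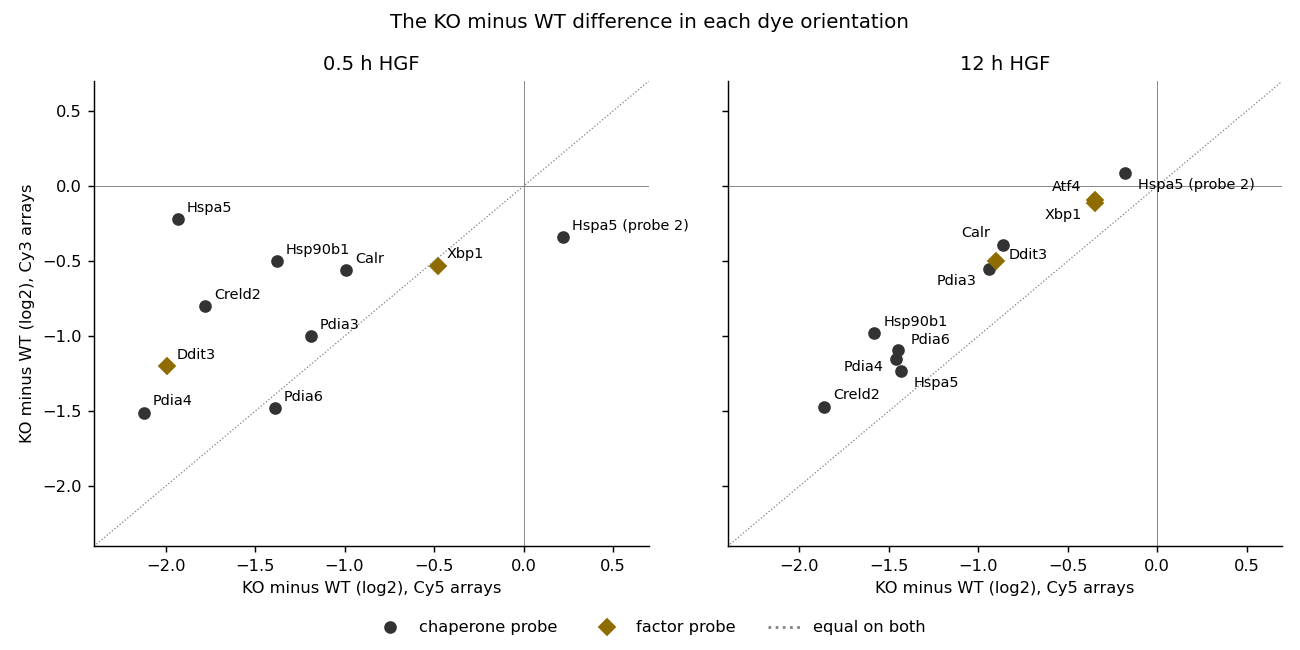
KO minus WT log2 difference of each member probe on Cy5 arrays (horizontal axis) and Cy3 arrays (vertical axis) at 0.5 and 12 h, up to 3 replicates per genotype, with chaperone probes as circles, factor probes as diamonds and equality dotted. Ddit3 at 12 h has 1 KO replicate on Cy3 arrays, and Atf4 is not shown at 0.5 h. At 12 h all 11 probes lie above the dotted line, and 10 are below 0 on both axes.

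Most of the chaperone promoters share a sequence element that is already known from genes of the ER stress response. Its presence in them is therefore not independent support. The ER stress response element (ERSE), which is CCAAT and CCACG with 9 bases of any kind between them, is known as a binding site of ATF6 with the factor NF-Y, and also of XBP1. It was searched on both strands in the 250 bases before each gene's start, in RefSeq promoters of build GRCm38.p6, all 10 genes matched by symbol. It was present in 5 of the 7 chaperone genes (Hspa5, Hsp90b1 with 2 matches, Calr, Pdia6 and Creld2) and in none of the 3 factor genes, against 0.113% of 32851 promoters. Each match is shown in capitals with 20 bases on both sides, in the direction of the gene, so a match on the other strand reads as CGTGG before ATTGG.
Hspa5, chr2:34772005-34772063, + strand: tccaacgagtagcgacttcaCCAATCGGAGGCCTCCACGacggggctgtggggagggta
Hsp90b1 (start-distal), chr10:86705618-86705676, - strand: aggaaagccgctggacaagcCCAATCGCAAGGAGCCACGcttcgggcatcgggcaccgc
Hsp90b1 (start-proximal), chr10:86705513-86705571, - strand: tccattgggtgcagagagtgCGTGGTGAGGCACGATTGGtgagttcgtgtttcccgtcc
Calr, chr8:84847055-84847113, - strand: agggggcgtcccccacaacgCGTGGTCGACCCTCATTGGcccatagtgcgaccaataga
Pdia6, chr12:17266471-17266529, + strand: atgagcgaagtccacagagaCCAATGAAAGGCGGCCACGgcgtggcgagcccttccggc
Creld2, chr15:88819500-88819558, + strand: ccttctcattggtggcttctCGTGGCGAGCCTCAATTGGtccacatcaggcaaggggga

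The ERSE match lies 65 to 47 bases before the start of Hspa5, 98 to 80 before that of Pdia6 and 126 to 108 before that of Creld2. The whole 250 bases before the start are given for Hspa5, with the match in capitals, and for Pdia4, the gene with the largest KO minus WT difference at 0.5 h, in which no ERSE was found. CCAAT alone, the first part of the ERSE, stands in the Pdia4 window, as in all 7 chaperone promoters and 33.8% of all promoters.
Hspa5, chr2:34771840-34772089, + strand: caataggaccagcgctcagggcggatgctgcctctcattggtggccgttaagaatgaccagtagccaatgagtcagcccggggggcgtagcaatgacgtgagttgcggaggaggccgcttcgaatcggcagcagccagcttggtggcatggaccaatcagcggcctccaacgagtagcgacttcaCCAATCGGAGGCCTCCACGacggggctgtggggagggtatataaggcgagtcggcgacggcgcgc
Pdia4, chr6:47813513-47813762, - strand: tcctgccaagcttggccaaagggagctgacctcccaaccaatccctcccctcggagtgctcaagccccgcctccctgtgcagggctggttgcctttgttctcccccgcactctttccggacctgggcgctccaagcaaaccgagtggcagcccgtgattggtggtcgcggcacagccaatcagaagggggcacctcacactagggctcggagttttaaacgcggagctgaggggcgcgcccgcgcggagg

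The 3 related elements searched gave no match in the members: ERSE-II (ATTGG and CCACG with 1 base of any kind between them) stood in 0.0304% of all promoters, TGACGTGG (the core of the unfolded protein response element) in 0.563% and TGATGNAAN (an amino acid response element bound by ATF4 and CHOP dimers) in 3.44%. The first of these shares its CCACG with the ERSE. A match is a description of these letters and not a measured site. The elements were chosen after the values were seen. Of 35 genes of the table with an ERSE match before a start, 15 were tested on 17 probes. Leaving out the members, 10 genes with 11 probes were tested. Of these 11 probes, 5 were lower in KO at 0.5 h, against 11.1% of all probes lower and 19.8% called in either direction. At 12 h 2 of the 11 were lower, against 2.50% lower and 4.49% called, and none was higher at either time. The median difference of the 11 probes at 0.5 h was -0.32, against -0.04 over all probes. The 5 were Derl3 (-1.22 ± 0.25), Syvn1 (-0.41 ± 0.09), Canx (-0.53 ± 0.15), 1 of 2 Ero1b probes (-0.71 ± 0.18) and Pan2 (-0.38 ± 0.12), named after their values were seen. The other Ero1b probe gave -0.11 ± 0.23 at 0.5 h and -1.01 ± 0.28 at 12 h, where it was called and the first was not.

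Other genes of the pathway were counted in 6 lists, to be read against 11.1% of all probes lower and 19.8% called at 0.5 h, and 2.50% lower and 4.49% called at 12 h. At 0.5 h, 9 of 25 probes for other lumenal folding factors were lower in KO and 2 higher (list median -0.26, all probes -0.04), and at 12 h 2 were lower and none higher. Ppib, a lumenal peptidyl-prolyl isomerase, was lower at 0.5 h (-0.69 ± 0.13, adjusted p = 0.000589) and at 12 h (-0.90 ± 0.17, adjusted p = 0.00198). Sdf2l1, a partner of BiP cochaperones, was lower at 0.5 h (adjusted p = 0.00680) and at 12 h (-1.25 ± 0.34, adjusted p = 0.0338). Hyou1, an exchange factor for BiP, was lower at 0.5 h (-0.66 ± 0.15). In ER-associated degradation, which exports misfolded proteins to the proteasome, 5 of 16 probes were lower and none higher at 0.5 h, and 2 lower at 12 h. Derl3, a component of the export channel, was lower at 0.5 h (given with the ERSE genes) and by -1.48 ± 0.31 at 12 h (adjusted p = 0.00477). Herpud1, a scaffold of the ligase complex, was lower at 0.5 h (-1.44 ± 0.21, adjusted p = 5.28e-05). Ube2j1, its ubiquitin-conjugating enzyme, was lower at 0.5 h (-0.37 ± 0.12) and 12 h (-0.86 ± 0.15).

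For translocation and N-glycosylation, 7 of 29 probes were lower and none higher at 0.5 h, and none was called at 12 h. Ssr2, a subunit of the translocon-associated complex, had -0.33 ± 0.11 at 0.5 h, and Krtcap2, a subunit of the oligosaccharyltransferase, had -0.38 ± 0.13. For COPII export and retrieval, 7 of 27 were lower and 1 higher at 0.5 h, and 1 was lower at 12 h, the last near the share over all probes. Lman1, a cargo receptor for glycoproteins, had -0.47 ± 0.12 at 0.5 h, and Sec24b, a COPII coat subunit, -0.70 ± 0.15 at 12 h. Sec23b, another coat subunit, had -0.30 ± 0.09 at 0.5 h and -0.46 ± 0.09 at 2 h. Of the other stress sensors and factors, 5 of 15 were lower and 1 higher at 0.5 h, and 1 was lower and 1 higher at 12 h. Atf6b, a relative of ATF6, had -0.42 ± 0.13 at 0.5 h and -0.69 ± 0.16 at 12 h. Ppp1r15a encodes GADD34, which reverses the translational block, and had -0.59 ± 0.15 at 0.5 h. Creb3l3, a liver-enriched factor of the ER membrane, was higher in KO at 2 h (0.47 ± 0.09) and at 12 h (0.52 ± 0.11). Of the integrated stress response targets, 4 of 26 were lower and 1 higher at 0.5 h, and 1 was lower at 12 h, near the shares over all probes called at both times. That one was Slc7a11, the cystine transporter, at -1.35 ± 0.25 (adjusted p = 0.00171). Cth, an enzyme of cysteine synthesis, had -0.78 ± 0.16 at 0.5 h, and Phgdh, of serine synthesis, had -1.13 ± 0.25 at 24 h.

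**Figure D5:**
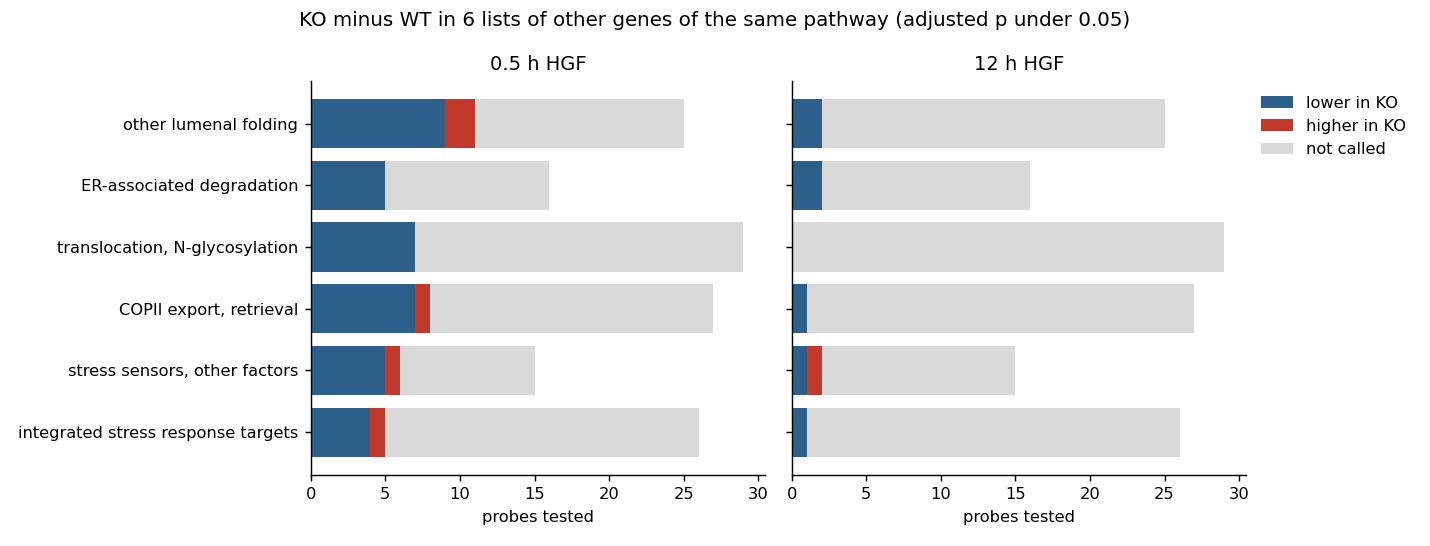
Number of probes tested in each list of other pathway genes that were lower in KO (blue), higher in KO (red) or not called (grey) at 0.5 and 12 h of HGF. At 0.5 h between 4 and 9 probes of each list are lower, and at 12 h at most 2.

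Of markers of other liver cell types, 4 of 18 (22.2%) were lower in KO at 0.5 h and none higher, against 11.1% of all probes lower and 19.8% called. They were Cftr of bile ducts (-1.17 ± 0.17), Dcn of stellate cells (-1.13 ± 0.16), Hba-a1 of red cells (-1.06 ± 0.21) and Cdh5 of endothelium (-0.60 ± 0.14). At 12 h 1 of 18 was lower, Dnase1l3 of endothelium (-1.32 ± 0.20). Averaged over the markers of a type, the log2 ratio at 0.5 h ran from -0.50 to -0.45 in KO and from -0.14 to 0.00 in WT for endothelium, and from -0.36 to -0.28 in KO and 0.07 to 0.21 in WT for stellate cells. For bile duct it ran from -0.25 to -0.19 in KO and 0.11 to 0.23 in WT, for Kupffer cells from -0.20 to -0.01 in KO and -0.04 to 0.08 in WT. The endothelial, biliary and stellate averages thus did not overlap between genotypes at 0.5 h. Red cell averages did not either, with -0.09 to 0.23 in KO and 0.24 to 0.52 in WT. The same held for the hepatocyte markers, with averages of -0.46 to -0.24 in KO and -0.23 to -0.01 in WT. Lymphocyte averages overlapped, with -0.12 to 0 in KO and -0.30 to 0.02 in WT, as did those of Kupffer cells. Of the single markers, 1 of 3 endothelial, 1 of 5 bile duct, 1 of 2 stellate and 1 of 2 red cell markers was called. The share of all probes without overlap was not counted. At 12 h no bile duct, stellate or Kupffer cell marker was called, with averages of -0.25 to -0.21, -0.70 to -0.62 and -0.35 to -0.17 in KO, and -0.26 to -0.24, -0.77 to -0.60 and -0.49 to -0.34 in WT. The endothelial average was -0.70 to -0.30 in KO and -0.19 to 0.06 in WT, with Dnase1l3 the 1 of its 3 markers that was called and a median difference of -0.12. In WT, 7 of the 18 markers were lower and 2 higher at 2 h than at 0.5 h, against 22.6% of all probes lower and 36.5% called. Their part in the member results was not tested, and in these RNA pools of a culture, fewer cells of a type and less RNA per cell cannot be told apart. Of 8 hepatocyte markers 6 were tested, and 1 was lower in KO at 0.5 h, the apolipoprotein gene Apoa1 (-0.72 ± 0.23). A ratio to hepatocyte RNA cannot show whether a marker is present or absent.

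By Pearson correlation, the 8 other probes most like the mean chaperone profile over the 30 replicates, out of 6079 compared, were Eea1, Tbcb, Sgms2, Hgsnat, Ccdc47, Ppef2, Slc35b1 and Tgfbr2, with r from 0.918 to 0.878. For Xbp1, the only factor tested, the 5 were Grpel1, Camk4, Slc11a2, Srp54a and Cers2, with r from 0.863 to 0.832. The profile of the chaperones contrasts groups of unequal array sets, which these likenesses share.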

How the data were processed

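Gene expression was measured on 60 2-colour arrays. The authors deposited log2 ratios per probe, with the log base inferred from the range of the values. Their normalization and the numerator are not given in the sources used here, and ratios were taken as sample over reference on both dye orientations. A sign error would turn every direction of an array. Of 21997 probes, 16076 have 1 gene symbol. Each array was set to a median of 0, and both orientations of a replicate were averaged and counted as 1. A probe was tested with at least 2 of 3 replicates in all 10 groups (14580 probes, 66.3%). limma 3.58.1 (R 4.3.3) fitted 1 mean per group with weights by group spread (0.399 to 1.77) and Benjamini-Hochberg adjustment over all tested probes, with 20 residual and 5.21 prior degrees of freedom. The fit was tested on simulated data with independent values and the spread of each group. That simulation held no dye, array set or sign effect, so it could not show how the fit handles these. Precision is limited by the 3 replicates per group, and p-values set a difference against the spread between replicates in the weighted fit of all groups.

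The members, lists and weighted fit were chosen with earlier results of these data known, and so support nothing independently. Named are all member probes, up to 3 genes called most often per list, the 8 and 5 probes most correlated with the members, and Met and Egr1, chosen to check the labels, which the Met probe cannot do. Alb was not tested. The comparisons of 2 h with 0.5 h and the promoter elements were added after the values were seen. Alternatives changed the weights, dyes, filter, scaling, array set, replicates and samples fitted.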

Additional observations from a re-analysis of the deposited data

How the results depend on the processing

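Counts are member probes called of those tested. The numbers called over all probes differ between fits and are mostly not given here, so these counts cannot be set against them. Equal weights gave 3 for KO minus WT at 0.5 h (8 in the weighted fit), 3 at 12 h (5), 2 for 24 h against untreated in WT (0) and 0 for 2 h against 0.5 h in KO (1). Cy3 arrays alone gave 1 for KO minus WT at 2 h (0), 3 at 12 h, 1 for 12 h against untreated in WT (0) and 4 for 2 h against 0.5 h in WT (8), and Cy5 arrays alone 6 for 2 h against 0.5 h in KO. Array set as a term gave 5 for KO minus WT untreated (0), 3 at 2 h, 5 for 24 h against untreated in WT, 5 for 2 h against 0.5 h in KO and 6 for the interaction (0). Leaving out sets A and B gave 5 untreated, 3 at 2 h and 1 at 24 h (0) for KO minus WT, 5 for 2 h against untreated in KO (0), 7, 2 and 6 for 2, 12 and 24 h against untreated in WT, 5 for 2 h against 0.5 h in KO and 6 for the interaction. Turning the sign of the Cy5 array of WT untreated replicate 3 gave 2 untreated and 1 at 2 h for KO minus WT, 7, 1 and 2 for 2, 12 and 24 h against untreated in WT, 2 for 2 h against 0.5 h in KO and 2 for the interaction. Leaving out that replicate and KO 24 h replicate 2 gave 6 untreated and 2 at 2 h for KO minus WT, 8 and 6 for 2 and 24 h against untreated in WT, 5 for 2 h against 0.5 h in KO and 7 for the interaction. Removing dye profiles gave 1 untreated, 1 at 2 h, 3 for 2 h against untreated in WT and 2 for 2 h against 0.5 h in KO. Scale normalization gave 1 for KO minus WT at 2 h, 5 and 1 for 2 and 24 h against untreated in WT and 3 for 2 h against 0.5 h in KO. Probes with all 30 replicates gave 1 for KO minus WT at 2 h, 3 for 2 h against 0.5 h in KO and 2 for the interaction. Fitting only the groups compared gave 2 for KO minus WT at 2 h and 5 for 2 h against 0.5 h in KO, and was not run for the average and the interaction. For 2 h against 0.5 h in KO, no centring gave 2 and 1 orientation per replicate 0. Only comparisons whose count changed strongly are listed, so a count that is not listed may also have changed. Of the 29 member differences called in the weighted fit, 11 were not called on Cy3 arrays alone. With equal weights 10 of them were not called, and on Cy5 arrays alone 3. The cause of these changes was not tested.

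Leaving out 1 replicate gave 0 to 5 for KO minus WT untreated, 7 to 8 at 0.5 h, 0 to 1 at 2 h, 3 to 5 at 12 h, 0 to 1 at 24 h and 6 to 7 averaged, 0 to 1 for 2 h against untreated in KO, 0 to 7 and 0 to 6 for 2 and 24 h in WT, 0 to 2 and 7 to 8 for 2 h against 0.5 h in KO and WT, and 0 to 6 for the interaction. Without WT untreated replicate 3 the counts were 5, 7, 6 and 6 for KO minus WT untreated, 2 and 24 h against untreated in WT, and the interaction. No called member difference changed sign under these alternatives. With the replicate number as a block the counts were 8 at 0.5 h, 5 at 12 h and 7 averaged, as without it. No pairing by number was seen in deviations from the group means. For 10 of 30 replicates, their own number had the highest mean correlation with the other groups of the genotype. Same-numbered replicates had r from -0.252 to 0.667. All replicates given sets A and B are replicate 3, so number and array set are partly tied in this check.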
